A study of Mus musculus with 1931 samples.

Results

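Induced trophoblast stem cells (iTSC) were compared with mouse embryonic stem cells (ESC) kept in 2i/LIF, both grown in 2D. The comparison holds the wells of plates 8 (iTSC) and 7 (ESC) in which at least 2500 genes were listed above 0, that is 49.8% of 283 iTSC wells and 44.8% of 317 ESC wells. These are 283 cells, in nearly equal numbers from both cultures, of the 1406 cells kept in the whole series. The other cells of the series are induced extraembryonic endoderm (iXEN) cells of a 2D culture and cells from 1 pool of RtL-embryoids, which are aggregates of the 3 cell types. Transcripts were read by SMART-seq2, a full-length method that processes each sorted cell in a well of its own. The iTSC were made from 5-Factor ESCs, a line that carries DOX-inducible Cdx2, Tfap2c, Eomes, Gata3 and Ets2. They received 2 µg/ml DOX for 3 days in TSC medium with 25 ng/ml FGF4 and heparin, conditioned by feeder fibroblasts, followed by 24 h without DOX. They were stained for the surface protein CD40 and sorted on it. The ESCs were Kermit ESCs, a line with an Oct3/4-GFP reporter, kept in serum with LIF and the inhibitors CHIR-99021 and PD0325901, sorted for GFP and never given DOX. The iXEN, whose values are set beside some results, came from another line, mCherry-marked iGATA6 ESCs with a DOX-inducible GATA6. They were grown in XEN cell medium with the same dose and timing of DOX as the iTSC and sorted for mCherry. Each side is 1 culture on 1 plate, and line, medium, DOX, sort and plate differ together between them, so that these cannot be told apart. No comparison below therefore carries a test: values are given for both cultures with their spread over cells, and intervals of shares are exact 95% Clopper-Pearson intervals that cover counting error only.

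Trophoblast stem cells stand for the extraembryonic ectoderm (ExE), the tissue from which the placenta is formed. Their identity is kept by a circuit of transcription factors, among them CDX2, EOMES, ELF5 and TFAP2C, and by FGF4 from the epiblast acting through the receptor FGFR2. ESCs rest on OCT4 (the product of Pou5f1), NANOG and SOX2 and, in 2i/LIF, on naive factors such as KLF4, TFCP2L1 and ESRRB. Some factors, SOX2 and ESRRB among them, are used by both stem cell types.

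Trophoblast and epithelial genes were high in iTSC, most of the Pou5f1 and Nanog transcripts of ESC were missing there, and a group of ESC genes stayed on that included Sox2, Esrrb, Klf5 and Utf1. Levels are given as TP10k, the deposited relative transcript abundances (TPM) rescaled so that each cell sums to 10000. Of 20999 genes, 11566 had a value above 0 in 25% or more of either culture's cells and were compared by the difference of log2(mean TP10k + 0.1), which understates the difference of low genes. The median difference over these genes was 0.06, with quartiles of -0.24 and 0.39, and 89.4% of them lay within 2-fold. At 4-fold or more, 1.26% of the compared genes were higher in iTSC and 0.735% (85 genes) were lower. These numbers depend on the pseudocount: as shares of all 20999 genes they were 0.695% and 0.405%, against 2.42% and 1.59% at 0.01 TP10k and 0.0714% and 0.0524% at 1 TP10k. With both cultures clustered together on 10 principal components of the 2000 most variable genes into 2 clusters, 0 of the 283 cells were placed with the other culture.

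**Figure D1:**
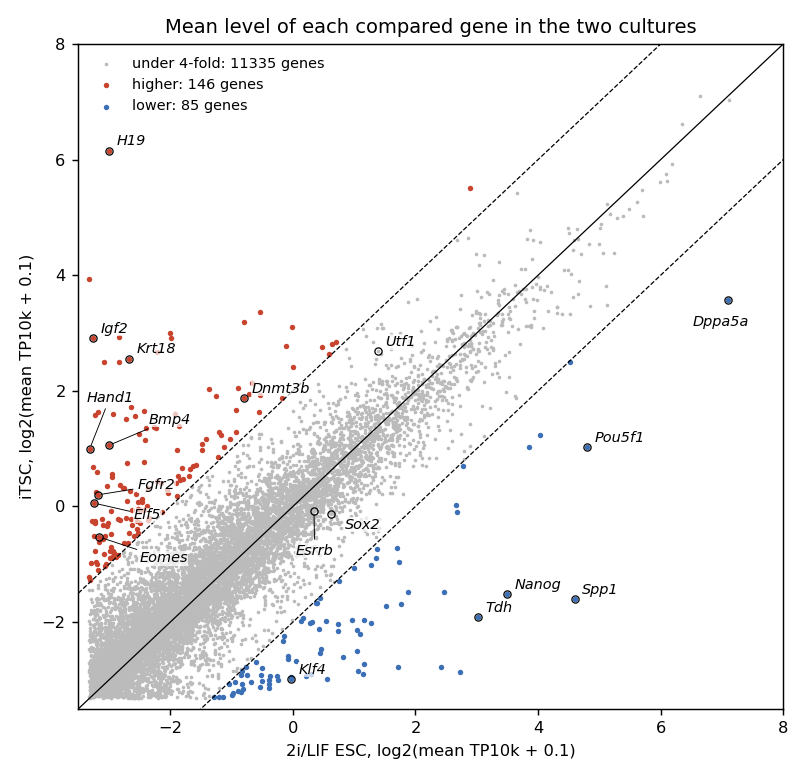
Mean level of each of the 11566 compared genes in 2i/LIF ESC (x axis) and iTSC (y axis), both as log2(mean TP10k + 0.1). Dashed lines mark 4-fold, red points the genes higher and blue points the 85 genes lower in iTSC. H19 stands farthest above the diagonal, Pou5f1, Nanog, Spp1 and Dppa5a lie below it, and Sox2 and Esrrb lie near it.

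The depth of both cultures was alike in part. The median number of genes above 0 was 8537 in iTSC (2864 to 11195) and 9094 in ESC (3358 to 10742), so that the iTSC list somewhat fewer genes per cell. The median sum of TPM was 564024 in iTSC and 629505 in ESC. TPM are relative within each cell and some entries were removed, so this sum does not measure depth. Read counts were not analysed here, and fewer transcripts per cell cannot be told apart from a shallower library. The 9 endoderm genes summed to a median of 0.192 TP10k per iTSC (0 to 1.80) and 0 per ESC (0 to 0.753), against 31.96 in iXEN, and 0 of the 2 compared genes among them were called, with a median log2 difference of 1.04. These were Amn, a part of the cubilin receptor complex, listed in 62 iTSC (43.97%) and 6 ESC at means of 0.169 and 0.00670 TP10k, and the adaptor gene Dab2, listed in 45 and 10 cells at 0.0762 and 0.00451. The endoderm factors Sox17 and Foxa2 were found in 1 and 3 iTSC. The part of endoderm transcripts in the results was not tested. The 8 fibroblast genes, which would mark feeder cells, summed to a median of 0.00819 TP10k in iTSC (0 to 0.751) and 0.00829 in ESC (0 to 0.373), and 0 of the 2 compared genes among them were called. The 6 mesoderm genes summed to a median of 0 in both cultures, although T, a factor of the primitive streak, was listed in 25 iTSC and 2 ESC.

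Of the 5 induced factors, 2 were past 4-fold 24 h after DOX had been withdrawn. Cdx2 was listed in 89 iTSC (63.1%, 95% CI 54.6% to 71.1%) and in 1 ESC (0.704%, 0.0178% to 3.86%). Its iTSC values ran from 0 over a median of 0.144 to 2.18 TP10k, and 78 iTSC lay above the highest ESC. Eomes, a T-box factor needed for the trophoblast lineage, averaged 0.593 TP10k in iTSC (SD 0.617 over cells) and 0.0122 in ESC (SD 0.0484). Gata3 averaged 0.519 against 0.112 TP10k and Tfap2c 0.678 against 0.355. Tfap2c was listed in 87.3% of ESC, which had received no DOX. Ets2 averaged 0.264 TP10k in iTSC and 0.293 in ESC, with a log2 difference of -0.11. The deposited values do not separate transgene from endogenous transcripts of these factors. In iXEN, which were also given DOX but come from the line with inducible GATA6, Cdx2 averaged 0.0195 TP10k, Eomes 0.112 and Gata3 0.0262.

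The TSC regulators that were not among the transgenes were higher in part. Of 10, all of them compared, 2 were past 4-fold higher, 0 were lower, and their median log2 difference was 1.08 against 0.06 over all compared genes. Elf5, an ETS factor that maintains TSC, was listed in 82.98% of iTSC (75.7% to 88.8%) at a mean of 0.940 TP10k (SD 1.18), with a lowest value of 0, a median of 0.354 and a highest of 4.76. In ESC it was listed in 57 cells (40.1%), but at no more than 0.118 TP10k, and 93 iTSC lay above that value. Shares of cells above 0 therefore overstate the presence of such genes in ESC. Id2, an inhibitor of helix-loop-helix factors, differed most of the 10, with means of 7.42 and 0.153 TP10k. Tead4, a TEAD factor that acts upstream of Cdx2 in the embryo, averaged 0.581 against 0.141 TP10k, a log2 difference of 1.498. Ascl2 averaged 0.216 against 0.0325 TP10k, while Cited2 (0.221 against 0.207) and Zfp281 (0.410 against 0.324) were alike in level.

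Of the signals and receptors of the ExE, 7 of 12 were past 4-fold higher and 0 lower (median log2 difference 2.63). Fgfr2, the receptor for the FGF4 of the medium, was listed in 88.7% of iTSC (82.2% to 93.4%) and 10 ESC (7.04%, 3.43% to 12.6%). Its iTSC values reached 4.79 TP10k around a median of 0.841, and 70.9% of iTSC lay above the highest ESC of 0.382. Bmp4, the ligand through which ExE acts on the epiblast, averaged 1.98 TP10k (SD 2.27) against 0.0246 (SD 0.0963), and Bmp8b, its ExE partner, 1.496 (SD 1.158) against 0.00393 (SD 0.0204). Wnt7b averaged 1.09 against 0.00739 TP10k and Plet1, a surface protein of TSC, 1.87 against 0.169. The proprotein convertases, which process NODAL precursors, did not follow: Pcsk6 averaged 0.162 TP10k in iTSC and 0.291 in ESC, and Furin 0.0770 and 0.0522. Cd40 averaged 0.704 TP10k against 0.0167, but its protein was the basis of the sort. It was listed in 86 of the sorted iTSC (60.99%, 52.4% to 69.1%).

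The epithelial list held 8 of 13 genes past 4-fold higher and 0 lower (median log2 difference 3.12). The simple-epithelium keratins Krt8 and Krt18 averaged 2.12 and 5.77 TP10k in iTSC and 0.0869 and 0.0572 in ESC, and the claudins Cldn3, Cldn4, Cldn6 and Cldn7, tight-junction proteins, lay between 2.28 and 8.49 TP10k in iTSC and between 0.0507 and 0.885 in ESC. Krt18 spanned 0 to 37.2 TP10k over iTSC with a median of 4.25, and 88.7% of iTSC exceeded the highest ESC. Cdh1, which encodes E-cadherin and is used by both stem cell types, averaged 0.627 and 0.550 TP10k. Several of these genes were also high in iXEN, where Krt8 averaged 5.99, Krt18 6.83, Cldn6 17.7 and Cldn7 6.38 TP10k, whereas Cldn3 (0.00913) and Cldn4 (0.106) were low there.

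Among genes of later trophoblast, 1 was past 4-fold higher. Hand1, a helix-loop-helix factor of giant cells, was listed in 84.4% of iTSC (77.3% to 89.96%) and 2 ESC (1.41%, 0.171% to 4.995%). Its mean was 1.90 TP10k (SD 2.18) in iTSC, 0.000587 in ESC and 0.00397 in iXEN, and 81.6% of iTSC lay above the highest ESC. The other 5 giant cell genes were not compared, since none was found in 25% of either culture, and the hormone genes Prl3d1 and Prl3b1 were at 0 in every iTSC, which allows a share of cells with a value of up to 2.58%. In the ectoplacental cone list, 0 of 3 compared genes were called with a median log2 difference of 1.26, and Phlda2, an imprinted regulator of placental growth, averaged 0.548 against 0.124 TP10k. Tpbpa, not compared, averaged 0.00717 in iTSC. In the syncytiotrophoblast list, whose genes summed to medians of 3.44 TP10k in iTSC and 3.38 in ESC, 0 of 5 compared genes were called. The monocarboxylate transporter gene Slc16a1 averaged 1.09 against 0.672 TP10k and Synb, the gene of syncytin B, 0.0541 against 0.222, while the labyrinth factor Gcm1, not compared, averaged 0.00232 in iTSC. The X-linked placental homeobox genes Rhox6 and Rhox9 averaged 3.00 and 2.91 TP10k in iTSC and 0.0109 and 0.00697 in ESC. Both were past 4-fold higher. Plac1 was found in 11 iTSC and was listed at 0 in every ESC.

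**Figure D2:**
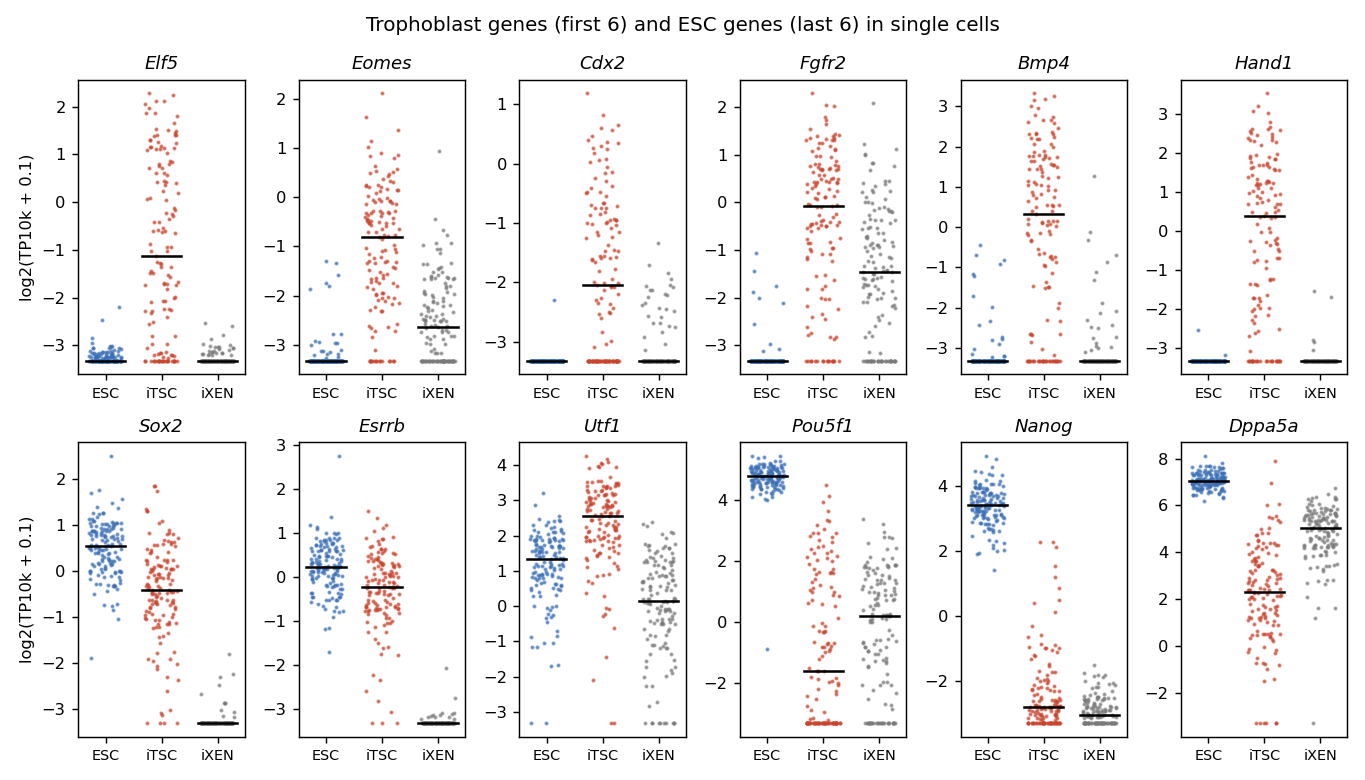
Single cells of 2i/LIF ESC, iTSC and iXEN as points with medians as black lines; the y axes are log2(TP10k + 0.1) and differ between panels. The trophoblast genes spread widely over iTSC and are at or near 0 in ESC. Sox2 and Esrrb lie at overlapping levels in ESC and iTSC and near 0 in iXEN, while Pou5f1, Nanog and Dppa5a are lower in nearly all iTSC than in ESC.

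Genes outside the lineage lists were also among the 15 with the largest differences of mean ln(TP10k + 1). Tinagl1, which encodes a secreted matrix protein, averaged 5.53 TP10k in iTSC and 0.0392 in ESC, and 97.9% of iTSC lay above the highest ESC. Lgals1, the gene of galectin-1, averaged 10.14 against 0.590 TP10k, and Cited1, a transcriptional co-regulator, 7.88 against 0.150. For each of these 2 genes, 91.5% of iTSC lay above the highest ESC. Fabp3, which encodes a fatty acid binding protein, averaged 45.2 against 7.30 TP10k. Morc4, Gsto1 and Dcxr were the other genes of the 15 from outside the lists. Fabp3 (58.7 TP10k) and Cited1 (5.62) were high in iXEN as well, whereas Lgals1 averaged 0.949 there. In the opposite direction, Pla2g1b, which encodes a secreted phospholipase, averaged 0.0375 TP10k in iTSC and 6.50 in ESC, Calcoco2, an autophagy receptor gene, 0.0463 against 5.24, and Jam2, a junctional adhesion gene, 0.0460 against 3.20. Igfbp2, the gene of an IGF-binding protein, averaged 1.94 against 14.3 TP10k. Pla2g1b was found in 11 iTSC and Calcoco2 in 14, while Igfbp2 was still found in 87.2%.

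Counted by shares of cells, with genes listed in at least 50% of the cells of one culture and in no more than 5% of the other, 15 genes were switched on in iTSC (0.13% of those compared) and 31 were switched off (0.268%). This count is apart from the 4-fold call, which some low genes among them, such as Cbfa2t3 and Cib2, did not reach. After Hand1, the largest differences of share among genes switched on were those of Vill, a villin-like actin-binding protein found in 83.7% of iTSC and 2 ESC, and Car4, a membrane carbonic anhydrase found in 77.3% of iTSC and 5 ESC. They were followed by Cbfa2t3, Tmprss2, Fhl2, Cd82, Frmpd1 and Cdx2. The remainder were Pmp22, Snai3, Cib2, Esrp1, Slc25a24 and Dsc2. Car4 (17.7 TP10k), Vill (0.763) and Tmprss2 (0.601) were also present in iXEN. The largest difference of share among genes switched off was that of Mcf2, found in 98.6% of ESC and 5 iTSC, followed by Prdm14, a regulator that guards naive pluripotency. Prdm14 was listed in 92.96% of ESC (87.4% to 96.6%) and 5 iTSC (3.55%, 1.161% to 8.08%). The transcription factor genes Foxd3, Olig2 and Sall3, the WNT inhibitor gene Notum, the germline gene Stra8 and Trh, the gene of thyrotropin-releasing hormone, belonged to the same 31, and their ESC means were low, between 0.0460 and 0.272 TP10k.

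Promoters from RefSeq (GRCm38.p6, 250 bases before to 50 after the start) were at hand for 11 of the 15 genes switched on and 19 of the 31 switched off. They were searched on both strands, in every start site of a gene, for 7 motifs of the factors concerned. GCCNNNGGC, the AP-2 motif that TFAP2C binds, was found in 6 of 11 genes switched on, 3 of 19 switched off and 18.5% of all 27025 genes of the table. GGAATG, the TEAD motif, was found in 5 of 11, 3 of 19 and 16.6%. AGATAA, the GATA motif, was found in 1 of 11, 3 of 19 and 12.7%. TTTATGG (CDX2), CCGGAAGT (ETS) and TCACACCT (T-box) were found in 0 of either set and in 3.21%, 4.31% and 1.48% of all. ATGCAAAT, the octamer bound by OCT4, was found in 1 gene switched on, Cdx2, in 0 of the 19 switched off and in 1.97% of all. A gene with several start sites, such as Cd82 and Pmp22 with 4 each, has more chances of a match, for which the shares are not adjusted. The sets are small and were not tested. The Cdx2 sequence is shown because the gene is both a transgene and a gene switched on. It gives the bases upstream of the annotated exon at chr5:147307271-147307499 on the minus strand, with the octamer in capitals. Cdx2 is also 1 of the 6 genes with an AP-2 match, which begins 16 bases before the start and lies outside the stretch shown.
Cdx2 promoter: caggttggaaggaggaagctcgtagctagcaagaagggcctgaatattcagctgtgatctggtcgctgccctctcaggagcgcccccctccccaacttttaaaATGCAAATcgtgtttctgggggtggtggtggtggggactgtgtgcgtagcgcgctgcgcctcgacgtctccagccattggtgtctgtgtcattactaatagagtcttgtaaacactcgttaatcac

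Of 37 genes of the core pluripotency, naive and ESC-associated lists, 15 were lower by 4-fold or more with the pseudocount, 12 stayed on and 10 met neither limit. A gene stayed on where it was listed in at least 50% of the cells of both cultures and its iTSC mean was at least 0.5 of the ESC mean. The list medians were -1.40 (core, 2 of 5 lower), -1.71 (naive, 5 of 13 lower) and -1.32 (ESC-associated, 8 of 19 lower), and 0 of these genes were past 4-fold higher.

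The lower genes included the core factors Pou5f1 and Nanog. Pou5f1 was listed in every ESC, at 0.4399 to 43.9 TP10k with a median of 27.5, and in 90 iTSC (63.8%, 55.3% to 71.8%) at 0 to 22.5 with a median of 0.231. Its mean was 14.4-fold lower in iTSC (1.93 against 27.8 TP10k), and 1 iTSC reached the 5th percentile of ESC. The ESC had been sorted for GFP from an Oct3/4 reporter, so the sort itself selected for Pou5f1 on that side. The iTSC values were graded: 48 iTSC had at least 1 TP10k, 18 had at least 5 and 5 had at least 10. Nanog averaged 0.250 TP10k in iTSC (SD 0.738) and 11.2 in ESC (SD 4.58), and 8 iTSC had at least 1 TP10k. Spp1, the gene of osteopontin, averaged 0.229 against 24.1 TP10k, and Dppa5a, the most abundant ESC-associated gene, 11.7 against 137.5. Dppa5a was nevertheless above 0 in 95.7% of iTSC. In iXEN, Pou5f1 averaged 1.60 TP10k, Nanog 0.0372 and Dppa5a 34.7. Of the naive factors, Klf2 (0.0310 against 1.06 TP10k), Klf4 (0.0264 against 0.884), Tcl1 (0.212 against 3.30) and Fbxo15 (0.413 against 3.20) were past 4-fold lower beside Prdm14. The ESC ligands and their co-receptor showed the same direction, with Fgf4 at 0.0257 against 1.37 TP10k, Gdf3 at 0.127 against 1.96 and Tdgf1, the NODAL co-receptor, at 0.259 against 5.41.

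The genes that stayed on included factors that TSC share with ESC, at ratios to the ESC mean that lay on both sides of 1. Of the 6 regulators listed as shared 0 were called, and their median log2 difference was -0.59. Not all of them stayed on: 2 were lower by 2-fold or more. The lowest was Zfp42, with a log2 difference of -1.855. Sox2 was listed in 97.2% of iTSC and every ESC, with medians of 0.655 and 1.36 TP10k, and 72 iTSC (51.1%) lay at or above the 5th percentile of ESC. Esrrb, an orphan nuclear receptor, had medians of 0.756 and 1.08 TP10k (means 0.844, SD 0.494, and 1.17, SD 0.630), and 74.5% of iTSC reached the 5th percentile of ESC. Klf5 (means 1.74 and 1.09 TP10k) and Tfcp2l1 (0.754 and 1.15) stayed on as well. In iXEN, Sox2 (0.00499 TP10k) and Esrrb (0.00235) were near 0, Tfcp2l1 averaged 0.118 and Klf5 1.36. Among chromatin and germline-related genes, Dppa2 (0.972 against 0.788 TP10k) and its partner Dppa4 (2.02 against 1.39), Dnmt3l (1.39 against 1.30) and Jarid2, a subunit of Polycomb complex PRC2 (0.717 against 0.616), also stayed on. Mybl2 and Lin28a stayed on too. In iXEN, Dnmt3l (4.505 TP10k) and Lin28a (0.719, against 0.223 in iTSC) were higher than in iTSC. Lower there than in iTSC were Dppa2 (0.290), Dppa4 (0.748), Jarid2 (0.195) and Mybl2 (1.64, against 3.47 in iTSC). Utf1, a chromatin-bound ESC factor, was higher in iTSC, with a mean of 6.32 TP10k (SD 4.05) against 2.53 (SD 1.47), a median of 5.81 against 2.42, and 32 iTSC above the highest ESC. Sox2 lay nearest inside the limit, at 0.567 of the ESC mean, and Rif1 nearest outside, at 0.477. Of the 10 genes that met neither limit, Trh, Nr5a2, Dppa3 and Tbx3 had plain iTSC means of 0.00129, 0.0692, 0.153 and 0.211 of the ESC means, so that the pseudocount kept these low genes from the 4-fold class. Zfp42 (Rex1), often read as a naive marker, was listed in every cell of both cultures at 1.96 and 7.33 TP10k.

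ESC and trophoblast genes were found together in single iTSC. Of the 90 iTSC with Pou5f1, 77 also had Elf5, 80 Eomes, 81 Fgfr2 and 55 Cdx2. Of the 51 iTSC without Pou5f1, 40 had Elf5, 46 Eomes, 44 Fgfr2 and 34 Cdx2, so that the shares above 0 were close on both sides (85.6% and 78.4% for Elf5). From 1 TPM upwards, the shares with Elf5 were 75.86% and 75.93%. By level, Pou5f1 had Spearman correlations over these cells of -0.26 with Elf5, -0.24 with Eomes, -0.17 with Cdx2 and -0.15 with Fgfr2. Those of Nanog with the same genes lay between -0.08 and 0.08. Above 0, Elf5 was found in 88.35% of iTSC with Nanog and 68.42% of those without, and Fgfr2 in 92.23% and 78.95%. Eomes (91.26% and 84.21%) and Cdx2 (64.08% and 60.53%) differed less. From 1 TPM upwards, these shares were 77.66% and 72.34% for Elf5 and 91.49% and 82.98% for Fgfr2. Shares above 0 do not show the level. In the 5 iTSC with at least 10 TP10k of Pou5f1, Elf5 lay at 0 to 0.112 TP10k, under the highest ESC of 0.118. In order of falling Pou5f1, Eomes was at 0.142, 0, 0.599, 0.668 and 0.208 TP10k in these 5 cells, where the highest ESC had 0.306. Fgfr2 was at 0, 0, 0.862, 0.0454 and 0, where the highest ESC had 0.382. All iTSC share a culture, a plate and a rescaling to a constant sum.

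Summed over 18 core and naive genes, iTSC held 3.58 to 40.4 TP10k (median 9.44) and ESC 39.3 to 99.9 (median 64.5), and 1 iTSC reached the lowest ESC. Summed over 22 TSC regulators and ExE signals, iTSC held 3.05 to 53.9 TP10k (median 19.5) and ESC 0.344 to 6.80 (median 1.62), with 6 iTSC at or below the highest ESC. In iXEN the pluripotency sum had a median of 7.90 TP10k (2.515 to 22.98), near that of iTSC. The trophoblast sum of iXEN had a median of 4.95 (1.343 to 12.5). Both sums had a Pearson correlation of -0.10 and a Spearman correlation of 0.18 over iTSC. The iTSC with the highest Pou5f1 (22.5 TP10k) was also the one with the lowest trophoblast sum of 3.05. It had 4.21 TP10k of Nanog, 0.112 of Elf5 and 0.142 of Eomes, but also 165.2 of H19, a gene that reached 1.31 in ESC, and 0 of Spp1. The 4 cells next in Pou5f1 (10.04 to 17.6 TP10k) had trophoblast sums of 4.36 to 19.2.

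**Figure D3:**
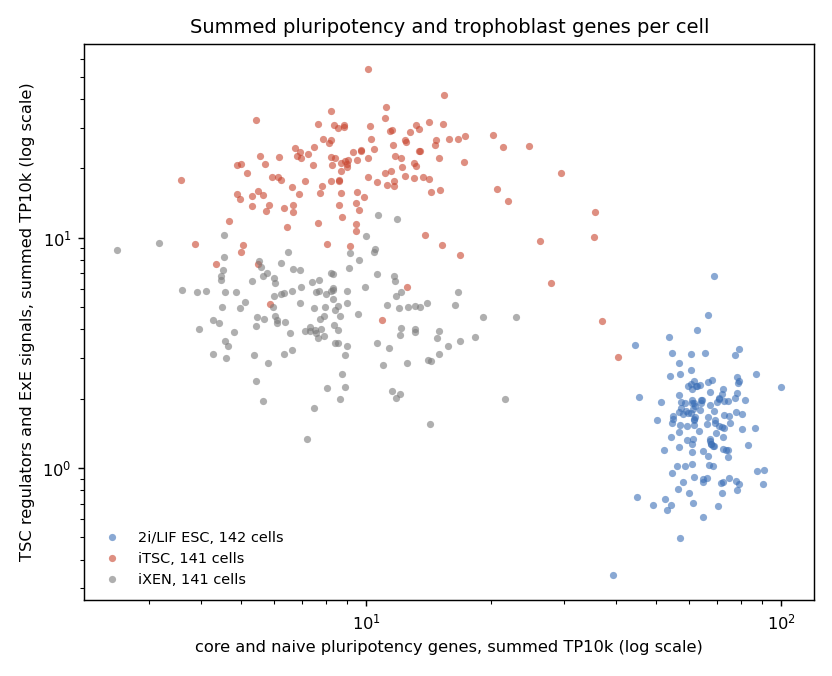
Each point is 1 cell of 2i/LIF ESC (blue), iTSC (red) or iXEN (grey), with summed TP10k of 18 core and naive pluripotency genes (x axis) and of 22 TSC regulators and ExE signals (y axis), both on log scales. The ESC sit at 39.3 to 99.9 on the x axis; the iTSC sit at a median of 9.44 and 19.5 on the axes, with a few cells between the clouds.

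Target genes of several signalling pathways differed between the cultures, whose media differ as well. PD0325901 blocks MEK, the kinase above ERK, and FGF4 acts through it. Of 13 compared FGF-ERK targets, 2 were past 4-fold higher and 0 lower (median log2 difference 0.998). These were the feedback phosphatase Dusp6 (1.12 against 0.141 TP10k) and the immediate-early gene Fos (0.966 against 0.0533). Spry4 (0.180 against 0.00519) and Etv4 (1.161 against 0.246) were higher below that limit, while Etv5 was at 0.765 in iTSC and 2.07 in ESC. Of 8 BMP targets, 3 were past 4-fold higher, namely Id1 (0.668 against 0.0706 TP10k), Id2 and the inhibitory SMAD gene Smad6 (0.458 against 0.0354), and 0 were lower. Of 9 LIF-STAT3 genes, Klf4 was lower, and Socs3 (0.426 against 0.689) and Stat3 (1.02 against 0.697) were not called. Of 4 compared WNT targets, 0 were called, and Notum, switched off by share, averaged 0.00625 against 0.266 TP10k. YAP-TEAD genes had 0 of 8 called with a median of 0.82. Among actin-related genes, 4 of 14 were past 4-fold higher, Anxa3 (5.54 against 0.0180 TP10k), Anxa2, S100a6 and Tagln2, while Actb averaged 98.4 and 81.4.

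Of 11 compared genes of the primed epiblast, Dnmt3b, a de novo DNA methyltransferase, was past 4-fold higher, and Lefty2 and Otx2 were lower. Dnmt3b averaged 3.56 TP10k (SD 1.97) in iTSC, 0.476 (SD 0.350) in ESC and 1.45 in iXEN, and 85.1% of iTSC exceeded the highest ESC. The NODAL inhibitor Lefty2 averaged 0.202 against 2.77 TP10k and Otx2 0.0464 against 0.492. In the DNA methylation list, Dnmt3b was the 1 gene of 8 called. Tet2 averaged 0.1004 against 0.562 TP10k, and Uhrf1, which guides maintenance methylation, 1.53 against 3.21.

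**Figure D4:**
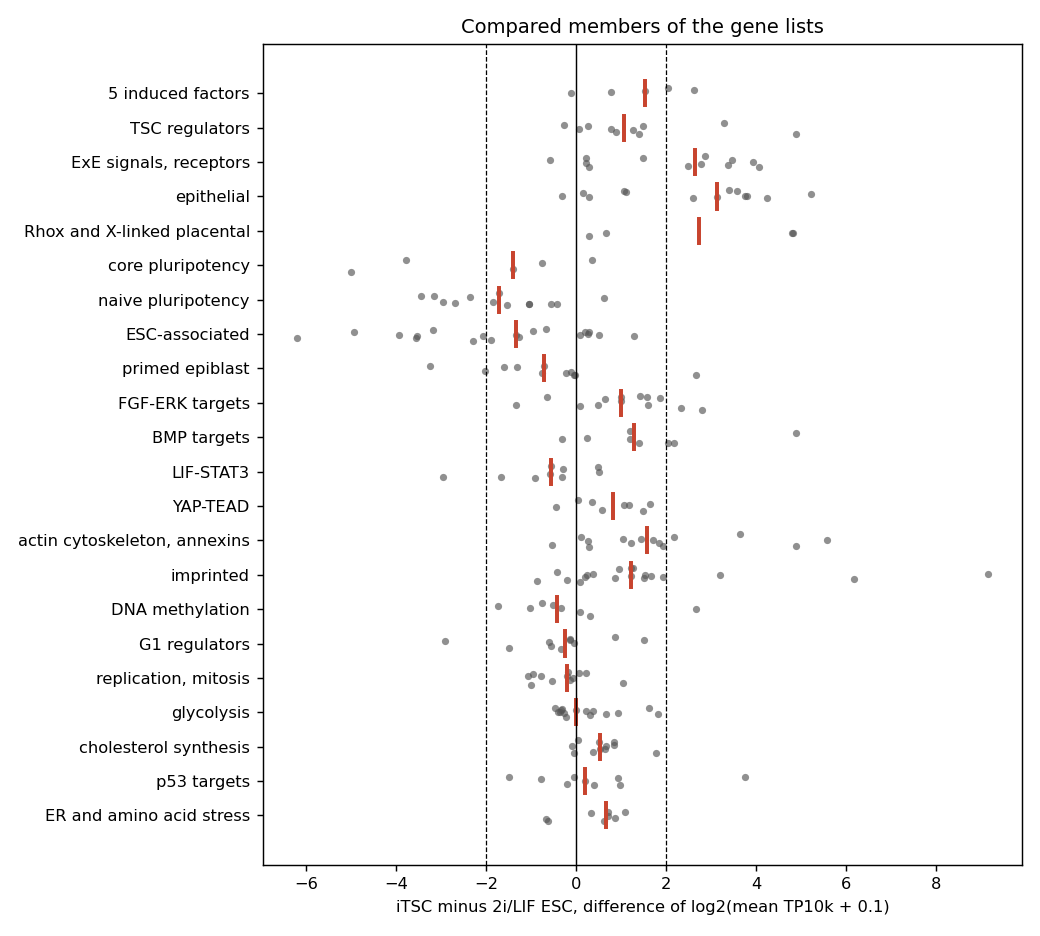
Compared members of 22 gene lists as points, with the list median as a red bar; the x axis is iTSC minus ESC of log2(mean TP10k + 0.1), and dashed lines mark 4-fold. Trophoblast and epithelial lists lie mostly to the right, pluripotency lists mostly to the left with members on both sides, and glycolysis, replication and G1 lists have medians between -0.24 and 0.01.

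Imprinted genes held the largest single difference. Of 19 compared, 3 were past 4-fold higher and 0 lower (median log2 difference 1.23). H19, a maternally expressed non-coding RNA on chromosome 7 (142575529 to 142578143, minus strand, GRCm38), averaged 71.3 TP10k in iTSC, 0.0252 in ESC and 1.43 in iXEN. Igf2, the paternally expressed growth factor gene upstream of it, averaged 7.43 (SD 9.43), 0.00440 and 0.462, and Peg3 1.61, 0.0848 and 1.31. H19 also hosts the microRNA gene Mir675, which was listed in 62 iTSC (43.97%) at a mean of 15.1 TP10k and at 0 in every ESC (an upper limit of 2.56% of cells). Reads of the shared exon can be split between both, so the Mir675 values are uncertain. Its mature arms (RefSeq, GRCm38.p6, minus strand) are shown with the seed, bases 2 to 8, in capitals, since they are the product this locus can give. They lie at chr7:142577078-142577099 and chr7:142577112-142577133, and their seeds differ.
mmu-miR-675-3p: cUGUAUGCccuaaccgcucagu
mmu-miR-675-5p: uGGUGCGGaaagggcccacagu

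H19 and Igf2 are normally transcribed from opposite parental chromosomes under 1 shared control region, and over single iTSC their levels ran against each other. The Spearman correlation was -0.66 and Pearson's r -0.49 over all iTSC. With limits of 10 TP10k for H19 and 1 for Igf2, chosen after the values were seen, 59 cells had Igf2 alone past its limit (41.8%, 33.6% to 50.4%), 48 had H19 alone (34.04%, 26.3% to 42.5%), 32 had both (22.7%, 16.1% to 30.5%) and 2 had neither. Under the limit is not 0: H19 was at 0 in 14 of the 59 cells and reached 7.64 TP10k there, and Igf2 was at 0 in 22 of the 48. Few cells lay near the limits, 4 at 5 to 20 TP10k of H19 and 13 at 0.5 to 2 of Igf2. The median of each gene was lower where both were past their limits: H19 had a median of 61.2 TP10k (quartiles 49.3 and 94.7) with Igf2 past its limit and 152.1 (105.6 and 223.2) with Igf2 under it. Igf2 had a median of 5.12 (3.61 and 9.62) with H19 past its limit and 11.7 (6.83 and 17.9) with H19 under it. The median number of genes was 8486, 8478 and 8596 in cells with both, H19 and Igf2. The median trophoblast sum was 20.5, 15.3 and 21.2 TP10k in these cells. In the same order, the mean of Cdkn1c, an imprinted CDK inhibitor gene, was 0.275, 0.0382 and 0.463, and that of Phlda2 0.36, 0.113 and 0.994. Other imprinted genes did not follow this order. Mest was at 1.34, 1.57 and 0.621, Peg3 at 1.78, 1.96 and 1.27 and Meg3 at 3.43, 3.36 and 2.73. Each of these was lowest with Igf2 alone past its limit. Ascl2 was at 0.166, 0.238 and 0.227. The part of depth in these differences was not tested. All ESC had neither, as did 85.8% of iXEN.

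**Figure D5:**
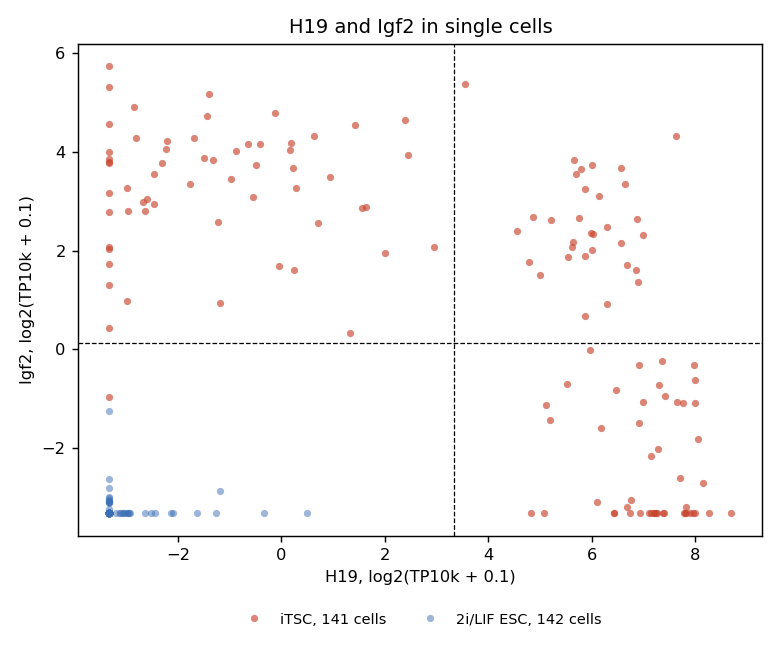
H19 (x axis) and Igf2 (y axis) in single iTSC (red) and ESC (blue), as log2(TP10k + 0.1), with dashed lines at 10 TP10k of H19 and 1 TP10k of Igf2. The iTSC fall into 3 clouds of 59, 32 and 48 cells with Igf2, both genes or H19 past these limits, and 2 cells lie in the quadrant of the ESC.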

How the data were processed

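Single cells of 2i/LIF ESC, iTSC and iXEN were measured by SMART-seq2. The authors pseudoaligned the reads with kallisto to GRCm38 transcripts (Gencode vM16), removed mitochondrial, ribosomal and pseudogene entries and summed transcripts per gene, and the deposited values are TPM per gene and well. These carry no read counts, so depth is known only through the number of expressed genes. The further minimum of aligned reads that the authors used could not be applied. TPM were rescaled to 10000 per cell (TP10k), so that a few abundant genes can shift all others. In the series, 39 wells hold no values. Doublets were not called, since each well received a sorted cell. Groups follow the labels of each plate. With 1 culture a side no test was made. Means over cells were compared with a pseudocount of 0.1 TP10k, and a gene was called from 4-fold. Named genes were all members of 34 lists (302 of 310 genes are in the table), the 15 genes with the largest difference of mean ln(TP10k + 1) in each direction, and the 15 with the largest difference of share among those switched on and off. The members and lists were chosen with earlier results of these data known. Gene positions are from Gencode vM21 (GRCm38). The 4-fold call was tested with known differences put into genes of intermediate level in a random part of the ESC. Low genes and the rules on shares and on genes that stayed on were not tested in this way. Alternatives changed the minimum of genes, scaling, centring, pseudocount, filter, detection limit and mean. Python 3.11.15, numpy 2.4.6, pandas 2.3.3, scipy 1.17.1 and scikit-learn 1.9.0 were used. 1 gene that stayed on is counted but not reported here by name.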

Additional observations from a re-analysis of the deposited data

How the results depend on the processing

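The share of genes past 4-fold moved most with the pseudocount and the scaling. As percent of all 20999 genes, those higher in iTSC went from 0.695 to 0.429 with TPM as deposited, to 2.42 at a pseudocount of 0.01 TP10k and to 0.0714 at 1 TP10k, and those lower went from 0.405 to 1.59 and 0.0524 at these pseudocounts. Genes switched on numbered 15 to 20 and genes switched off 24 to 38. The number of ESC genes that stayed on was 12 under each of the 11 alternatives, and 0 cells were placed with the other culture with 5 or 20 components or without the listed genes. Among called named genes 0 changed sign, and 81 calls were lost over all alternatives, 56 of them at a pseudocount of 1. Of 32 list medians, each recomputed under 11 alternatives, 35 of the recomputed values lay more than 1.5-fold from the reported one and are given here as log2 differences. Of medians of at least 1 in size, 0 changed sign. With TPM as deposited, it was giant cell 3.55. At a pseudocount of 0.01, they were TSC regulators 2.12, ExE signals 3.71, X-linked placental 4.27, giant cell 7.50, ectoplacental 2.06, naive -2.50, FGF-ERK 2.19, BMP 3.00 and endoderm 3.00. At a pseudocount of 1, they were induced factors 0.39, TSC regulators 0.19, ExE signals 0.70, epithelial 1.51, X-linked placental 1.24, giant cell 1.54, ectoplacental 0.24, naive -0.58, ESC-associated -0.56, primed -0.091, imprinted 0.24, FGF-ERK 0.22, BMP 0.36, YAP-TEAD 0.18, actin 0.91, endoderm 0.16 and neural -0.42. With genes found in 10% of cells, it was endoderm 0.096. Without a filter, they were X-linked placental 0.66, giant cell 0, ectoplacental 0.41, endoderm 0.061 and neural -0.0093. With 1 TPM as the detection limit, they were X-linked placental 4.80 and WNT -1.09. No paired analysis was possible because each side is 1 culture. The median of all compared genes was -0.0098 with TPM as deposited. Without read counts, depth limits the low genes most, for which a value of 0 may be a transcript that was missed.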

Other observations

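The following genes were chosen after their values were seen, except Perp, Ccnd1, Ccnd3, Cdkn1a, Slc2a1, Pdk1, Mvd, Tubb3, Pax6 and Ifitm3, which belong to the named genes. Sct, the gene of the hormone secretin, averaged 7.50 TP10k in iTSC and 0.0396 in ESC. Wnt6, a WNT ligand gene, averaged 1.18 against 0.0220 TP10k, and Esx1, an X-linked placental homeobox gene, 0.601 against 0.0198. Mmp9, a matrix metalloproteinase gene, averaged 0.756 against 0.0158 TP10k. Among single genes lower in iTSC, Stmn2 averaged 0.0348 against 2.12 TP10k, Uchl1 0.0393 against 1.99, Ifitm3 2.24 against 16.3 and Ifi27 0.0505 against 2.15. Of the 2 compared genes of the neural list, Tubb3 averaged 0.0574 against 0.938 TP10k and Pax6 0.0398 against 0.0172.

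Cell cycle and metabolic lists had median log2 differences of -0.24 (G1), -0.19 (replication and mitosis), 0.01 (glycolysis) and 0.54 (cholesterol). Past 4-fold were 1 of 10 G1 regulators, 0 of 12 replication and mitosis genes, 0 of 15 glycolysis genes and 0 of 11 cholesterol genes. Over all compared genes 1.26% were higher and 0.735% lower, so these counts do not set the lists apart. Ccnd1, the gene of cyclin D1, was the G1 gene past 4-fold, at 0.0814 TP10k in iTSC and 1.27 in ESC. Ccnd3 was at 18.6 and 10.13 and the CDK inhibitor gene Cdkn1a at 1.52 and 4.41. Among 9 p53 targets, 1 was past 4-fold, Perp, which encodes a desmosome-associated membrane protein, at 2.46 against 0.0909 TP10k. The glucose transporter gene Slc2a1 was at 8.41 and 2.68 TP10k, Pdk1 at 1.27 and 0.286, and Mvd, an enzyme gene of cholesterol synthesis, at 2.28 and 0.599.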
